A study of Mus musculus with 18 samples.

Results

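Hrc, Srl, Slc8a1 and Camk2b encode proteins that move, store or sense calcium in heart muscle. The 4 genes were taken by symbol from the authors' deposited gene lists and joined by probe identifier to the deposited values per sample. Each was represented by 1 probe set, called a probe here, among 4704 probes with values, of which 2568 carried a single gene symbol. All 4 symbols stood in the P8 gene list and none in the P30 list. Because a probe got its symbol only where the authors' test of hypoxia against normoxia gave an unadjusted p of up to 0.05, a difference at P8 was in part a condition of being named. For these 4 genes the P30 comparison was not used in this way, while the comparisons between ages, and of the hypoxia effects between ages, contain the same P8 samples.

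Mouse hearts were profiled on Clariom S arrays in 4 groups. These were 5 hypoxic and 4 normoxic samples at postnatal day 30 (P30), and 5 hypoxic and 4 normoxic samples at postnatal day 8 (P8). Hypoxic mice were kept at 11% oxygen, the labels name no genetic change in any group, and RNA below a set integrity was not hybridised. The series addresses whether low oxygen from around birth slows cardiac maturation, as a model of cyanotic congenital heart disease. The labels give no strain, do not say that each sample was a separate animal, and do not say how long the P30 mice stayed in hypoxia. P-values therefore measure only the spread between these samples, and the number of arrays limits the precision.

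In a heartbeat, calcium entering through the L-type channel opens ryanodine receptors of the sarcoplasmic reticulum (SR), and the released calcium drives contraction. The pump SERCA then returns calcium to the SR, and the sodium-calcium exchanger carries the rest out of the cell. In rodents the SR takes over more of this cycle after birth, while the exchanger is prominent in fetal and newborn heart.

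Hrc, the histidine-rich calcium binding protein, binds calcium in the SR lumen and contacts both triadin and SERCA. Its gene lies on chr7:45335269-45338973 of GRCm38.p6 (probe TC0700000840.mm.2). Srl encodes sarcalumenin, a calcium-binding glycoprotein of the SR lumen that stabilises SERCA, on chr16:4476979-4541908 (probe TC1600001130.mm.2). Slc8a1 encodes the sodium-calcium exchanger NCX1 of the cell membrane, on chr17:81373105-81738387 (probe TC1700002597.mm.2). Camk2b encodes the beta subunit of calcium/calmodulin-dependent protein kinase II, better known from brain and skeletal muscle than from heart, where the delta subunit prevails. It lies on chr11:5969629-6066357 (probe TC1100002158.mm.2).

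The 250 bases before the RefSeq start of Hrc and of Slc8a1 are printed because these genes had the largest fall and the largest rise of the 4 in hypoxia at P8. Capitals mark ACGTG and GCGTG on either strand, the core letters of the element bound by the hypoxia-inducible factors. The windows are chr7:45335019-45335268 (plus strand) for Hrc and chr17:81738388-81738637 (minus strand) for Slc8a1, both of GRCm38.p6.
Hrc: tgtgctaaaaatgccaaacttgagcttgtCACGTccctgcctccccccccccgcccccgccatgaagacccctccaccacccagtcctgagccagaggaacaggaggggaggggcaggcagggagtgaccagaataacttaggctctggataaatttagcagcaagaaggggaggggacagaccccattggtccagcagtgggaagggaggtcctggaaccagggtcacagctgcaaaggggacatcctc
Slc8a1: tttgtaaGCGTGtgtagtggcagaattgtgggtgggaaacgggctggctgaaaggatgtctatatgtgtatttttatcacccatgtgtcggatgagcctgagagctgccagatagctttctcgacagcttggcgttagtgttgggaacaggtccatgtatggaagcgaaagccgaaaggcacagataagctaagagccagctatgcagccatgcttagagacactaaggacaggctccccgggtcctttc
The Hrc window held 1 ACGTG match, beginning at base -221 and read on the opposite strand, and no GCGTG. The Slc8a1 window held 1 GCGTG match, beginning at base -243, and no ACGTG. The Camk2b window, chr11:6065749-6065998 (minus strand), held 3 matches of GCGTG. It lies within the bounds given above for the gene, not upstream of them. Over 32851 RefSeq windows of the same length, 16.57% held ACGTG, 28.16% held GCGTG and 38.6% held at least 1 of them, so that such a match is common, and it is given as a description only. Other start sites of these genes were not examined.

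At P8, hypoxic hearts had less Hrc transcript and more Slc8a1 and Srl transcript than normoxic hearts. Hrc had log2 signals of 13.93, 13.76, 12.87, 13.14 and 13.25 in hypoxic samples 4 to 8, against 14.91, 15.36, 15.57 and 15.82 in normoxic samples 13, 22, 23 and 24. The groups did not overlap, and the lowest normoxic sample was number 13. The mean was 13.39 ± 0.44 (SD, n = 5) in hypoxia and 15.42 ± 0.39 (SD, n = 4) in normoxia, a 4.07-fold fall with a limma adjusted p of 4.31e-04.

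Srl, the other protein of the SR lumen, went the opposite way. Its log2 signals were 15.77, 15.67, 15.88, 16.36 and 16.06 in hypoxic samples 4 to 8 and 14.65, 14.80, 15.08 and 14.84 in normoxic samples 13, 22, 23 and 24. The lowest hypoxic value, 15.67, was above the highest normoxic value, 15.08. Srl rose 2.15-fold (log2 difference 1.11 ± 0.20, SE, limma adjusted p = 0.00248).

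Slc8a1 had log2 signals of 15.25, 15.14, 15.02, 15.23 and 15.55 in the hypoxic samples, against 14.65, 13.79, 13.83 and 13.51 in the normoxic ones in the same order. The groups did not overlap, but normoxic sample 13 lay closest to the hypoxic range, as it also did for Hrc. Slc8a1 rose 2.45-fold (log2 difference 1.29 ± 0.26, SE, limma adjusted p = 0.00543). Without sample 13 the log2 difference was 1.53.

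Camk2b had low signal. Its group means were 4.93 to 6.15, while the 25th percentile of all values in the table was 5.48. At P8 it read 5.33, 5.68, 6.96, 6.38 and 6.41 in hypoxic samples 4 to 8, against 5.64, 5.27, 5.41 and 4.92 in normoxic samples 13, 22, 23 and 24. Hypoxic samples 4 and 5 lay at the level of the normoxic samples and the other 3 lay above it. The log2 difference of 0.84 ± 0.35 (SE) did not pass over the array (limma adjusted p = 0.272). Without hypoxic samples 4 and 5 it was 1.27 ± 0.35 (adjusted p = 0.0483, over alternatives of 0.0483 to 1). These samples were left out for their high interferon-induced genes, but they also hold the lowest hypoxic Camk2b values, so that leaving them out had to enlarge the difference and nothing is read from that call.

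**Figure D1:**
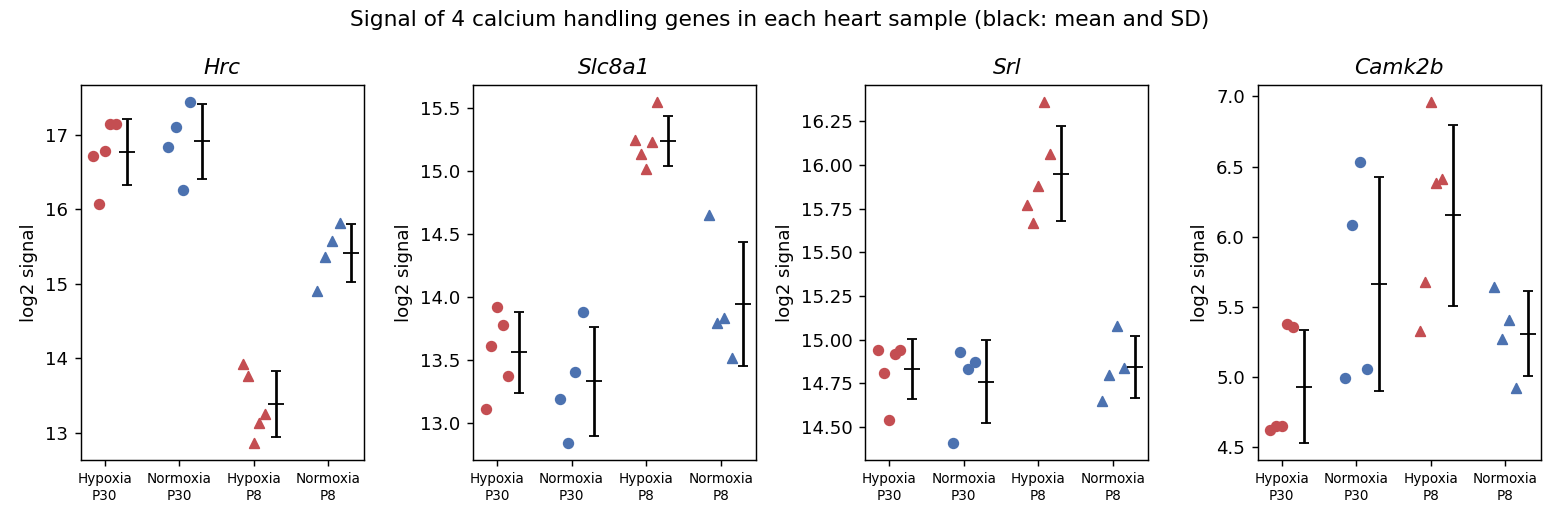
Log2 signal of Hrc, Slc8a1, Srl and Camk2b in every sample (points) with the group mean and SD (black), by group along the horizontal axis; each panel has its own vertical scale, which does not start at 0. Hypoxic P8 samples stand below normoxic P8 samples for Hrc and above them for Slc8a1 and Srl, while hypoxic and normoxic P30 samples overlap in all 4 genes.

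Thus 3 of the 4 genes passed at P8, where limma called 20.7% of all probes with values (15.2% higher and 5.57% lower) and 36.5% of probes with a single symbol. Since being named depended on this contrast, nothing is read from that count. An exact two-sided permutation test over the samples gave p = 0.00794 for Hrc, Srl and Slc8a1, the smallest that 126 regroupings allow, and p = 0.0714 for Camk2b. These p-values are unadjusted. They come from the same P8 groups through which the genes were named, and are not separate support. Over all probes the median log2 difference was 0.18 as deposited and -0.19 with arrays centred on their medians. Centring also turned the split of all calls from 73.2% higher to 28% higher. With centred arrays Hrc was at -2.39, Srl at 0.74 and Slc8a1 at 0.93, and all 3 still passed (adjusted p = 1.34e-04, 0.0325 and 0.0361).

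At P30, none of the 4 genes passed the test of hypoxic against normoxic hearts, and the groups overlapped in each. Hrc read 16.71, 16.07, 16.78, 17.15 and 17.15 in hypoxic samples 1 to 5, against 16.84, 17.11, 16.26 and 17.44 in normoxic samples 2 to 5. Its log2 difference was -0.14, with a 95% confidence interval of -0.75 to 0.47. Slc8a1 read 13.11, 13.61, 13.92, 13.78 and 13.37 in hypoxia, against 13.19, 12.84, 13.40 and 13.88 in normoxia (log2 difference 0.23, interval -0.30 to 0.76). Both intervals include 0 and leave out differences of the size measured at P8.

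Srl read 14.94, 14.81, 14.54, 14.92 and 14.94 in hypoxic P30 samples, against 14.41, 14.93, 14.83 and 14.87 in normoxic ones. With an interval of -0.34 to 0.48 around a log2 difference of 0.07, a difference of the size seen at P8 lay outside the range. Camk2b read 4.62, 4.65, 4.65, 5.38 and 5.36 in hypoxia, against 4.99, 6.08, 6.53 and 5.06 in normoxia (log2 difference -0.73, interval -1.46 to -0.01). The unadjusted p of Camk2b was 0.0479 and the adjusted p was 1. Limma called 0% of all probes at P30, with 656 at an unadjusted p under 0.05, 0 with limma-trend and 4 when adjusted over the value table alone, so the absence of calls was not particular to these genes.

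The effect of hypoxia on Hrc differed between the ages, in a test that contains the P8 difference through which Hrc was named and is not independent of it. The effect was 1.88 ± 0.41 (SE) higher on the log2 scale at P30 than at P8 (limma adjusted p = 0.0277, over alternatives of 0.00587 to 0.0640), where 5.17% of all probes passed this test (4.34% lower, the rest higher) and 9% of probes with a single symbol did (1.44% higher and 7.55% lower). The call was lost without normoxic P8 samples 22, 23 or 24, hypoxic P8 sample 8, normoxic P30 sample 4 or hypoxic P30 sample 5, while the value stayed at 1.67 to 2.06 over all samples left out. For Srl the same difference was -1.04 ± 0.28 (adjusted p = 0.0719), for Slc8a1 -1.06 ± 0.36 (0.181) and for Camk2b -1.58 ± 0.49 (0.128). These 3 did not pass.

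**Figure D2:**
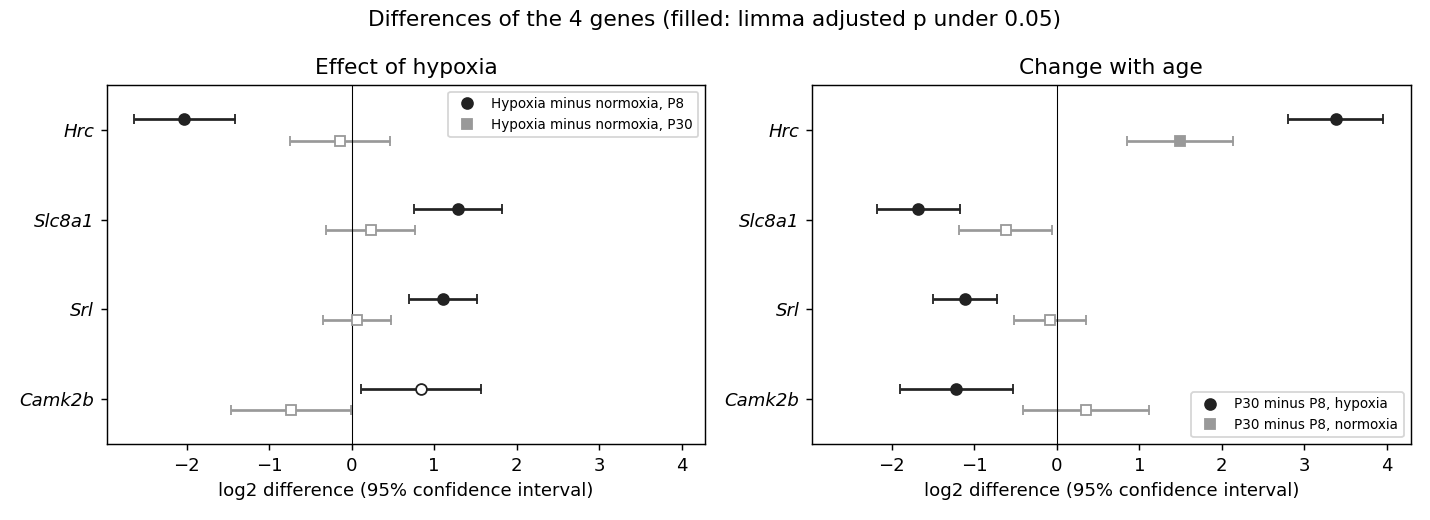
Log2 differences with 95% confidence intervals for the 4 genes: on the left hypoxia minus normoxia at P8 (black circles) and P30 (grey squares), on the right P30 minus P8 in hypoxia (black circles) and normoxia (grey squares). Filled points passed at a limma adjusted p under 0.05. The P8 effect of Hrc is at -2.03, and its difference with age is 3.38 in hypoxia.

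Between P8 and P30 all 4 genes passed the test in hypoxic hearts, while Hrc alone passed in normoxic hearts. The difference between the oxygen groups is the one tested above, which passed for Hrc only. These comparisons share the P8 and P30 samples with those above and are not separate support for them. In hypoxic hearts Hrc averaged 16.77 ± 0.44 at P30 and 13.39 ± 0.44 at P8 (SD, n = 5 each), a 10.4-fold rise (limma adjusted p = 4.50e-08). In normoxic hearts it averaged 16.91 ± 0.50 at P30 and 15.42 ± 0.39 at P8 (SD, n = 4 each), a 2.82-fold rise (adjusted p = 0.00398). Neither pair of ages overlapped.

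Slc8a1 averaged 13.56 ± 0.32 at P30 and 15.24 ± 0.20 at P8 in hypoxic hearts, a fall by 1.68 on the log2 scale (adjusted p = 3.57e-05). In normoxic hearts it averaged 13.33 ± 0.44 at P30 and 13.95 ± 0.49 at P8, a log2 difference of -0.62 ± 0.27 (SE) that did not pass (adjusted p = 0.268). Srl fell by 1.12 in hypoxia (14.83 ± 0.17 at P30 and 15.95 ± 0.27 at P8, adjusted p = 1.78e-04). In normoxia its log2 difference was -0.08, with an interval of -0.52 to 0.35. Camk2b fell by 1.22 in hypoxia (adjusted p = 0.0119), a call lost with quantile normalization (-0.76) or centred arrays (-0.75), and its difference in normoxia was 0.36 ± 0.37. Its ages overlapped in both oxygen groups. Limma called 70.2% of all probes in the hypoxic age comparison (26.3% higher and 43.9% lower) and 34.6% in the normoxic one (18.3% higher and 16.3% lower).

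In the order of their levels, Hrc was lowest in hypoxic P8 hearts, followed by normoxic P8 hearts and then both P30 groups, which did not differ beyond their spread. Slc8a1 ran the other way, with hypoxic P8 hearts highest and the other 3 groups at 13.95 or below. Hypoxic against normoxic P30 hearts, and normoxic P30 against normoxic P8 hearts, did not pass, and hypoxic P30 against normoxic P8 hearts was not tested. Srl was highest in hypoxic P8 hearts, and its other 3 group means lay between 14.76 and 14.84. The mean of Camk2b was highest in hypoxic P8 hearts and lowest in hypoxic P30 hearts, with both normoxic groups between them. Of its pairs tested, only hypoxic P30 against hypoxic P8 hearts passed, and those groups overlapped.

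The wider calcium list held 115 genes of SR release and uptake, calcium entry, extrusion, mitochondrial uptake, calmodulin signalling and buffering. Of these, 22 stood in the authors' deposited P8 list (19.1%, against 19.6% of the array) and 4 in the P30 list (3.48%, against 6.87%). Values per sample were at hand for 18 genes, the 4 described above included. At P8, 3 of the 18 rose and 7 fell (median log2 difference 0.19), against 26.8% of probes with a single symbol that rose and 9.7% that fell (median 0.65). Under centred arrays 2 rose and 8 fell, and the calls over all probes were then 322 higher and 830 lower. All these genes were named through the P8 or the P30 list, so nothing is read from the counts. With only the 2 compared groups in the fit, 4 of the 18 passed (Hrc, Srl, Slc8a1 and Ryr2), and the other 6 did not (adjusted p of 0.0680 to 0.108).

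Of 6 genes of SR release, 3 were called lower in hypoxic P8 hearts and none was called higher. Beside them, 9.7% of probes with a single symbol were lower and 26.8% higher, and 5.57% and 15.2% of all probes. All 6 genes were named through the P8 list, so nothing is read from this count. Besides Hrc, Trdn, the triadin that anchors calsequestrin to the release channel, averaged 15.22 ± 0.37 in hypoxia and 16.29 ± 0.40 in normoxia at P8 (log2 difference -1.07 ± 0.23, SE, limma adjusted p = 0.00912). Ryr2, the release channel itself, averaged 13.05 ± 0.77 in hypoxia and 14.66 ± 0.34 in normoxia. Its call (log2 difference -1.62 ± 0.42, adjusted p = 0.0304, over alternatives of 0.00464 to 0.0879) was lost without any one of the P8 samples but hypoxic sample 5. The other 3 genes of this group had higher means in hypoxia at P8 but were not called. They were Fkbp1a, a protein that binds the ryanodine receptor (0.67), Jph1, a junctophilin that holds SR and cell membrane together (0.85), and Tmem38b, an SR cation channel (0.57). Jph1 and Tmem38b passed when adjusted over the value table alone (limma adjusted p = 0.0442 and 0.0457).

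Around SERCA, Ppp1r1a, an inhibitor of protein phosphatase 1, was lower in hypoxia at P8, with a log2 difference of -1.09 ± 0.26 (SE, adjusted p = 0.0171). Atp2a3, a SERCA isoform not typical of heart muscle cells, was lower too (-0.87 ± 0.22, adjusted p = 0.0291). The call of Ppp1r1a was lost without normoxic sample 13, or without hypoxic samples 4 and 5 together (adjusted p = 0.0578 and 0.0645, over alternatives of 0.00222 to 0.0805). That of Atp2a3 was lost on leaving out normoxic sample 22, 23 or 24, hypoxic sample 4, 6 or 8, or hypoxic samples 4 and 5 together (adjusted p over alternatives 0.00286 to 0.117). Srl was thus the single gene of 3 in this group that rose.

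At the cell membrane, Cacna2d1, an auxiliary subunit of the L-type calcium channel, averaged 8.58 ± 0.29 in hypoxia and 9.68 ± 0.57 in normoxia at P8 (adjusted p = 0.0266). This call did not hold on leaving out normoxic sample 23 or 24 or hypoxic sample 6 or 8 (adjusted p over alternatives 0.00481 to 0.114). Cacna1c, the pore subunit of that channel, differed by -0.19 ± 0.32 at P8.

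Among calmodulin partners, Calm3, a calmodulin gene, rose at P8 (log2 difference 1.00 ± 0.25, SE, adjusted p = 0.0252), and Pcp4, a small regulator of calmodulin, fell at very low signal (3.18 ± 0.34 in hypoxia and 4.18 ± 0.32 in normoxia, adjusted p = 0.0143). The call of Calm3 did not hold on leaving out normoxic sample 23 or 24 or hypoxic sample 7, with quantile normalization (0.75) or with centred arrays (0.63, adjusted p over alternatives 0.00535 to 0.197). That of Pcp4 was lost without normoxic sample 24 (adjusted p over alternatives 0.00120 to 0.0680). Camk2b (0.84), Rcan1 (0.83) and Nfatc3 (-0.42) did not pass, nor did the SR buffer calreticulin, Calr (0.59).

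**Figure D3:**
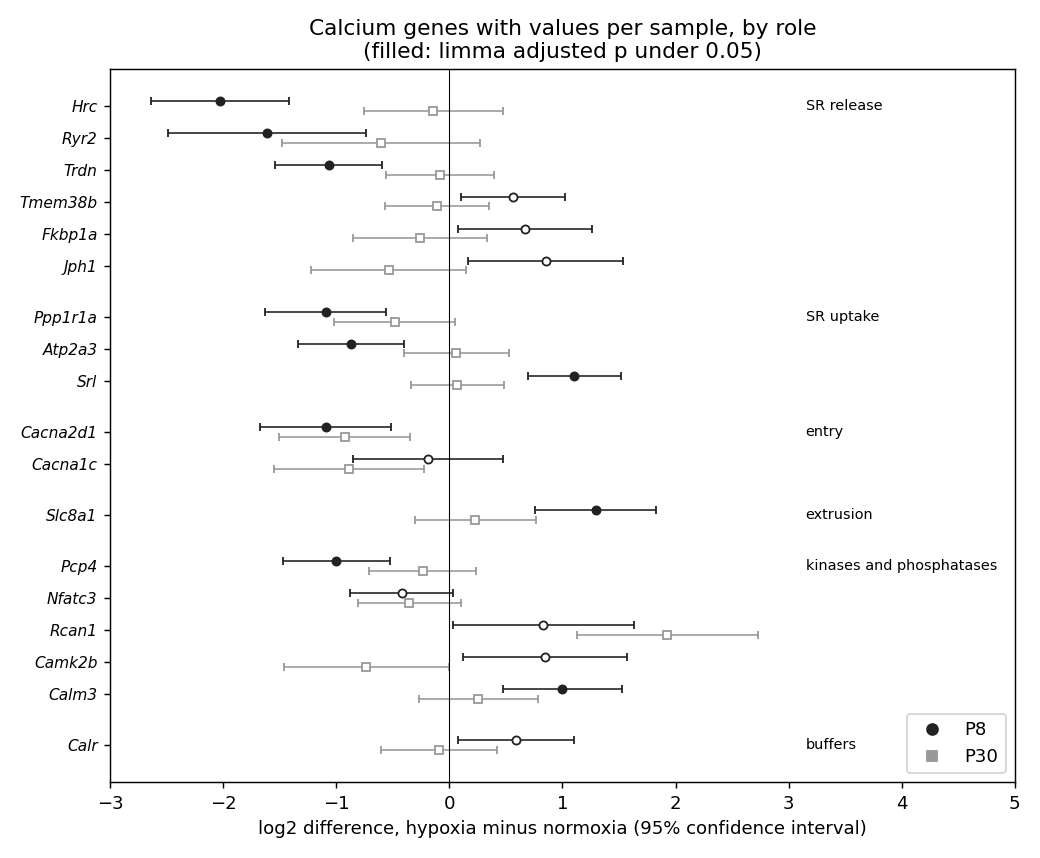
Log2 difference of hypoxia minus normoxia with 95% confidence intervals at P8 (black circles) and P30 (grey squares) for the 18 calcium genes with values per sample, grouped by role; filled points passed at a limma adjusted p under 0.05. At P8, 3 filled points lie right of 0 (Srl, Slc8a1, Calm3) and 7 left of it, and no point is filled at P30.

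With age in normoxic hearts, 5 of the 18 genes passed, all of them higher at P30, namely Hrc, Tmem38b (log2 difference 1.07 ± 0.23, SE, adjusted p = 0.00602), Jph1 (1.40 ± 0.35, 0.0148), Cacna1c (1.25 ± 0.33, 0.0250) and Cacna2d1 (1.08 ± 0.29, 0.0262). Of probes with a single symbol, 13.8% rose and 14.1% fell in that comparison. Other settings did call falls, with 5 higher and 4 lower when adjusted over the value table alone, 5 and 1 with quantile normalization, 3 and 2 without normoxic P30 sample 5, and 3 and 1 without normoxic P8 sample 22. The calls of Jph1 (adjusted p up to 0.0777), Cacna1c (up to 0.0790) and Cacna2d1 (up to 0.124) were each lost on leaving out single samples of the normoxic groups, and those of Jph1 and Cacna2d1 with only the compared groups fitted. Those samples were P8 sample 24 or P30 sample 4 for Jph1, P8 samples 22 or 24 or P30 samples 3, 4 or 5 for Cacna1c, and P8 samples 13 or 22 or P30 sample 5 for Cacna2d1. In hypoxic hearts 3 genes rose with age (Hrc, Trdn and Cacna2d1) and 6 fell (Slc8a1, Srl, Camk2b, Calm3, Fkbp1a and Calr), or 8 and 4 with centred arrays. Of probes with a single symbol, 65.8% passed in that comparison (19.6% higher and 46.2% lower).

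Markers of several cell types differed between hypoxic and normoxic P8 hearts. Those given in this paragraph were named through the P8 list alone, except Myh7, named through the P30 list alone. Their P8 differences were thus in part a condition of being named, and the values are a description. In bulk tissue, fewer cells of a type and less RNA per cell cannot be told apart. Of 14 cardiomyocyte markers 4 had values (Myh7, Ttn, Ckmt2 and Ryr2, the last also a gene of the calcium list), and their mean log2 signal was 14.15 to 15.68 in hypoxic and 15.83 to 16.20 in normoxic P8 samples. The 4 did not move together, since Ttn (log2 difference -1.55), Ckmt2 (-2.08) and Ryr2 (-1.62) fell, while Myh7, the slow myosin heavy chain that prevails in fetal mouse ventricle, was at 0.78 and did not pass. Among the hypoxic samples, numbers 4 and 5 were highest both in this mean and in Hrc. The normoxic P8 samples ran the other way at their ends. Sample 13 had the highest mean (16.20) and the lowest Hrc (14.91), and sample 24 the lowest mean (15.83) and the highest Hrc (15.82). Means of 5 of 7 erythroid markers were 8.36 to 9.67 in hypoxia and 5.71 to 8.34 in normoxia, those of 4 of 7 macrophage markers were 6.19 to 6.78 in hypoxia and 4.60 to 5.23 in normoxia, and those of 3 of 6 fibroblast markers were 13.94 to 14.17 in hypoxia and 15.46 to 15.94 in normoxia. Means of 2 of 6 endothelial markers (Eng and Flt1, both of which rose) were 12.56 to 13.63 in hypoxia and 11.32 to 11.68 in normoxia, and those of 4 of 5 neutrophil markers were 4.85 to 6.86 in hypoxia and 3.58 to 4.48 in normoxia. The part of these cells in the falls and rises above was not tested.

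For Camk2b, markers of nerve and of interferon response are given as well. Of 9 neuron markers 2 had values (Tubb3 and Uchl1), with means of 5.73 to 6.45 in hypoxic and 4.51 to 4.62 in normoxic P8 samples, and both genes passed at P8. Both, like the interferon-induced genes below, were named through the P8 list alone, so a P8 difference was in part a condition of being named. No skeletal muscle marker of 10 had values. The mean of 8 of 10 interferon-induced genes was 13.20 in hypoxic sample 4 and 14.91 in hypoxic sample 5, while hypoxic samples 6 to 8 ranged over 6.24 to 10.29 and normoxic P8 samples over 3.99 to 5.09. Samples 4 and 5 were the hypoxic samples with the lowest Camk2b. The part of either list in the Camk2b values was not tested.

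**Figure D4:**
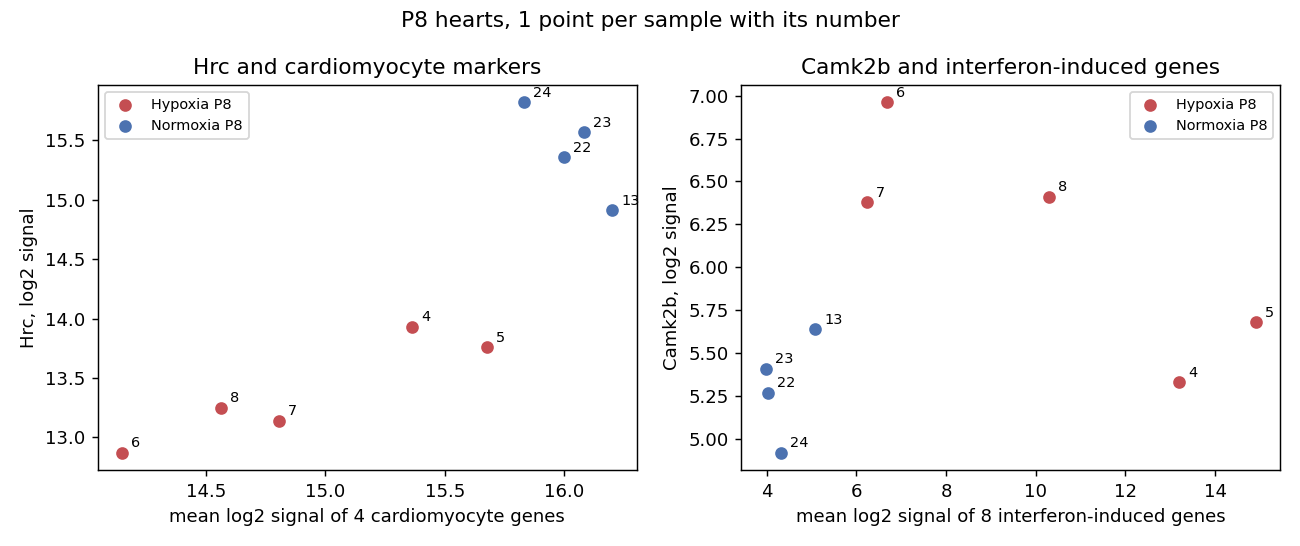
P8 samples by number, hypoxic in red and normoxic in blue: on the left Hrc against the mean log2 signal of 4 cardiomyocyte markers, on the right Camk2b against that of 8 interferon-induced genes. Hypoxic samples 4 and 5 have the highest cardiomyocyte means of the hypoxic samples and, on the right, the highest interferon means and the lowest hypoxic Camk2b values, 5.33 and 5.68. On the left, normoxic sample 13 has the highest cardiomyocyte mean and the lowest Hrc of the normoxic samples.

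The named genes whose 18 values ran most like those of each gene are given as a description, since every probe in the table has group means at least 0.46 apart, and group differences alone make such likeness common. For Hrc they were Ckmt2, the sarcomeric mitochondrial creatine kinase (Pearson r = 0.969), Cmya5, Fhl2, Kiz and Macrod1 (0.941), and 49 of 2567 other named probes had r above 0.9. For Slc8a1 they were Cenpn, a centromere protein (0.943), Yars, Troap, Pdk3 and Peg3 (0.927). For Srl they were the lysosomal cathepsin A gene Ctsa (0.949), the lactate exporter Slc16a3 (0.94), Grhpr, Klf7 and Msmo1 (0.921). For Camk2b no probe reached 0.9, and the nearest were Smpd4 (0.859), Fiz1, Nedd4l, Rhou and Plbd2 (0.83).

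In the authors' deposited table, 7 further calcium genes were listed for which values per sample were not used here. At P8 the authors' signed fold of hypoxia over normoxia was -1.73 for Ppp3cb, a calcineurin subunit, 2.02 for Gem, a GTPase that restrains calcium channels, and -1.32 to -1.16 for Jph4, Camkk1, Jsrp1 and Ryr1. At P30 it was -2.05 for Casq1, a calsequestrin gene, while the calsequestrin gene Casq2 stood in neither list. The authors' q-values for the 7 further genes in that deposited table were 0.0824 or higher.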

How the data were processed

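RNA from mouse heart was measured on Clariom S arrays in 18 samples, grouped by their labels. The deposited values are log2 signals, 1 per probe and sample. How the authors normalized them is not stated in the labels, and Affymetrix Expression Console is credited per the submitters' processing notes. Array medians were 7.38 to 8.07. The table covers 21.2% of the array's 22199 probes, a number worked out from the p-values, q-values and ranks of the gene lists. In each of its probes the 4 group means span at least 0.46, so it is a selection. Per the file headers, the authors' gene lists give group averages as log2, a signed fold change (score), and p-values and q-values of hypoxia against normoxia at P8 and P30, by a test they do not name. They are quoted as the authors' only. Of the table's probes, 2568 had 1 symbol.

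Differences were tested with limma 3.58.1 under R 4.3.3, using its lmFit, contrasts.fit and eBayes functions, on the values as deposited, over all 4 groups, with 14 residual and 5.98 prior degrees of freedom. Benjamini-Hochberg adjustment used 22199 tests and a threshold of 0.05. The fit was tested on simulated data. Intervals are at 95%. The genes and lists were chosen with earlier results of these data known. Named were the 4 genes, calcium genes past the threshold in any comparison, and the 5 probes most correlated with each gene. Other calcium genes with values are given by their difference. The wider list of 115 genes was counted without 1 further gene, which is not reported here. Alternatives were adjustment over the table alone, only the compared groups, quantile normalization, centred arrays, limma-trend, no dim probes (every group mean under 5.48), samples left out, a replicate block and exact permutation. Upstream windows are from RefSeq, GRCm38.p6; 3 of the 4 genes matched.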

Additional observations from a re-analysis of the deposited data

Results flagged for a closer look

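The effect of hypoxia on Hrc differed between the 2 ages (limma adjusted p = 0.0277), a call lost with some single samples left out (adjusted p up to 0.0640). Of probes with a single symbol, 9% passed the same test. The hypoxia effect at P30 minus that at P8 was 1.88 on the log2 scale by limma's interaction contrast, which contains the P8 difference through which Hrc was named (-0.14 at P30 and -2.03 at P8). No sample of the 4 genes stood far from the rest of its group by Dixon's test, in 16 sets of 4 or 5 samples.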

How the results depend on the processing

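Of 520 values of the 4 genes under the alternatives, 504 kept their side of the threshold, 10 lost a call and 6 gained one, and no call turned its direction. The P8 calls of Hrc, Srl and Slc8a1 held under all 26 alternatives run for each (adjusted p up to 0.00445, 0.0325 and 0.0361). Both counts include fits without a sample of a group not compared, which change only the shared estimate of the spread. They also include the permutation test, whose p is unadjusted. Adjusted over the value table alone, the difference of effects passed for Srl (-1.04), Slc8a1 (-1.06) and Camk2b (-1.58). With centred arrays it shrank to -0.51 for Srl, -0.54 for Slc8a1 and -1.05 for Camk2b. Quantile normalization gave -0.75, -0.74 and -1.07 in the same order, and no gene of these passed in either setting. Without hypoxic P8 samples 4 and 5 it passed for Srl (-1.19) and Camk2b (-2.01), and Camk2b passed at P8 (1.27); these samples hold the lowest hypoxic values of both genes, which enlarges each difference. For Hrc it was 1.67 to 2.06 with single samples left out. The fall of Camk2b with age in hypoxia was -0.76 with quantile normalization and -0.75 with centred arrays.

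Of the 18 calcium genes, 10 were called at P8, and 4 were with only the compared groups fitted and 5 to 10 with single samples left out. At P30, 0 to 1 were called with samples left out. For the difference of effects 1 was called, and 7 when adjusted over the table alone, 2 with quantile normalization, 4 with centred arrays, 3 without hypoxic P8 samples 4 and 5, and 0 to 1 with single samples left out. With age in normoxia 5 were called, and 9 adjusted over the table alone, 3 with only the compared groups fitted and 3 to 5 with single samples left out. Over all probes, calls at P8 were 976, and 1938 adjusted over the table alone, 429 with only the compared groups and 566 to 978 with samples left out. For the difference of effects they were 243, and 1191, 570 with centred arrays, 478 without samples 4 and 5 and 142 to 376 with samples left out. With age in normoxia they were 1627, and 2669, 1053 with only the compared groups and 1079 to 1621 with samples left out. Centring turned the share of higher calls from 16% to 83.5% for the difference of effects and from 37.4% to 61.4% with age in hypoxia. The cause of these changes was not tested.

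Groups share sample numbers 2 to 5 at P30 and 4 and 5 in hypoxia, which are not stated to pair samples. Same-numbered P30 samples correlated at -0.168 to 0.074. With the number as a replicate block at P30, Hrc was at -0.13 (adjusted p = 1) and 0 of the 18 genes passed. With a replicate block in 4 hypoxic samples, Hrc (3.31) and Slc8a1 (-1.62) passed with age, while Srl (-0.79) and Camk2b (-0.14) did not. In that fit 2 of the 18 genes were called, beside 23.7% of all probes. How far low signal limits Camk2b, Pcp4, Jph1 and Ppp1r1a was not tested.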

Other observations

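Rcan1, which encodes an inhibitor of the calcium-dependent phosphatase calcineurin, did not pass the test at P30. Its symbol came from the authors' P30 list alone, so a difference at P30 was in part a condition of being named, and its values are a description. Its log2 signals were 11.25, 12.07, 10.98, 11.03 and 11.45 in hypoxic P30 samples 1 to 5, against 9.08, 8.49, 9.25 and 10.89 in normoxic P30 samples 2 to 5. The groups did not overlap, though normoxic sample 5 lay close to the hypoxic range. The log2 difference was 1.93 ± 0.38 (SE, limma adjusted p = 0.295). Without normoxic sample 5 it was 2.42 (adjusted p = 0.00819, over alternatives of 0.00819 to 0.931). That sample holds the highest normoxic value, so that leaving it out had to enlarge the difference and nothing is read from that call. At P8 the difference was 0.83 ± 0.38 and did not pass, and the difference between the ages, 1.10 ± 0.54, did not pass either (adjusted p = 0.631).

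Cacna2d1, the calcium channel subunit, was named through both the P8 and the P30 list, so its separation at both ages was in part a condition of being named and is given as a description. At P30 it read 9.88, 9.75, 9.52, 9.96 and 10.04 in hypoxic samples, against 10.38, 10.46, 10.61 and 11.57 in normoxic ones (log2 difference -0.93 ± 0.28, SE, limma adjusted p = 0.772). The difference of effects between the ages was 0.17 ± 0.39, with an interval of -0.65 to 0.99.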
